A study of Mus musculus with 6 samples.

Results

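The heat shock genes described here are 10 mouse genes for cytosolic and mitochondrial chaperones, taken by name from the 52636 genes of the deposited matrix, and all 10 were found. They were grouped as 5 genes usually called inducible (Hspa1a, Hspa1b, Hspb1, Dnajb1 and Hsph1) and 5 that are constitutive or mixed (Hsp90aa1, Hspa8, Hspd1, Hspe1 and Dnaja1). The study, whose title names the response of alveolar type II (ATII) cells to IL-4 during aging, read single cells of mouse lung by droplet sequencing of 3′ ends. Its labels give 3 groups, each of 1 library of expression and 1 of sample tags: cells collected on day 13 of culture from young and old mice together, cells collected on day 13 from young mice, and cells sorted fresh on day 0 from young and old mice together. All groups carry the genotype IL4Ra WT and are labelled as mixed in treatment. Per the design text, spheres were grown without serum or feeder cells and received an interleukin (IL-4 in the title, written as another interleukin in the design text) at 10 ng/ml, or PBS as its control, from day 3. Each group pools cells of several mice, and the ages in months are not given in the sources used here.

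The barcodes carry 3 library tokens. None matches a label, so the tokens were lettered A, B and C and put in no group. Levels are given for each library on its own, with no fold between libraries and no test, and the only contrast is between dividing and other cells inside a library. Of the cells kept, 16367 came from library A, 5593 from B and 14580 from C, and median depths per cell were 3749, 8349 and 3341 UMIs, that is, RNA molecules counted once by their identifier. The libraries shared 20 (A and B), 67 (A and C) and 22 (B and C) cell barcodes. ATII identity held in each library: 16, 16 and 15 of 16 ATII markers reached 20 counts per 1000000 UMIs (CPM) in A, B and C, and the surfactant gene Sftpc held 255076, 128764 and 116228 CPM. Markers of T or NK cells, fibroblasts and erythroid cells were at or near 0 in each library (at most 0.189 CPM summed).

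Heat shock proteins are chaperones that keep other proteins folded. When unfolded proteins build up, the transcription factor HSF1 forms trimers, binds inverted repeats of GAA called heat shock elements in front of the inducible genes, and raises their transcription within minutes, while the constitutive members fold newly made proteins in every cell. The mitochondrial pair Hspd1 (HSP60) and Hspe1 (HSP10) forms the chaperonin chamber of the matrix, and HSP90, with its helper proteins, holds kinases and receptors of growth signalling in an active shape.

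Start regions are shown because heat shock elements lie there, and because the copies Hspa1a and Hspa1b and the pair Hspd1 and Hspe1, which the results set side by side, share theirs. Promoter windows of 300 bases (250 before to 50 after an annotated start, RefSeq, GRCm38.p6) were at hand for 8 of the 10 members, Hsp90aa1 and Hspa8 being the others. Shown are the 250 bases before the start, with matches to heat shock element units in capitals: chr17:34972157-34972406 (minus strand) for Hspa1a, chr5:135887669-135887918 (plus strand) for Hspb1, chr5:149636337-149636586 (minus strand) for Hsph1 and chr1:55087898-55088147 (plus strand) for Hspe1.
Hspa1a: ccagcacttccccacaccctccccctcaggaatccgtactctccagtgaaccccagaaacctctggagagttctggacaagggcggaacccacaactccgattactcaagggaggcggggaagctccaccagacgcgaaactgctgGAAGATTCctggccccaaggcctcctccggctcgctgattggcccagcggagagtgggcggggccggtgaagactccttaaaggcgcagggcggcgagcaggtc
Hspb1: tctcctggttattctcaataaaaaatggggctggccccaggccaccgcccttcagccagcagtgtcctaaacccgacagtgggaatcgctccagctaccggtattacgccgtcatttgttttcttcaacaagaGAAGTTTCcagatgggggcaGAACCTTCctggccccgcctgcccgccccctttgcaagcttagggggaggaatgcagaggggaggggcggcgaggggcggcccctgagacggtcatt
Hsph1: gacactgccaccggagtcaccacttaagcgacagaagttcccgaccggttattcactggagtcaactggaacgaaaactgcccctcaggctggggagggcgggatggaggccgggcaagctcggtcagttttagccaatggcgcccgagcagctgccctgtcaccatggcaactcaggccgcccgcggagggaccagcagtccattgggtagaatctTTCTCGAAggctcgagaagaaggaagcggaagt
Hspe1: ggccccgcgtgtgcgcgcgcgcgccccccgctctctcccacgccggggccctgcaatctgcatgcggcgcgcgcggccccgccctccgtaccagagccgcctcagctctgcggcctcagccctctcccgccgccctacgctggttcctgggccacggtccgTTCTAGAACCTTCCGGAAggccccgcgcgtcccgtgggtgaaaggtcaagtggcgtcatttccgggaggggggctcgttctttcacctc
The search covered both strands for 2 units (GAANNTTC or TTCNNGAA) and for 3 units, the same with a further NNGAA or NNTTC that keeps the units alternating, so each match of 3 units also holds matches of 2. Windows of Hspd1, Hspe1 and Hsph1 held a match of 3 units, found in 0.603% of all 32851 windows of this length. Of the 8 members, 7 had a match of 2 units in a window, found in 15.1% of all windows, and Dnajb1 had none in either of its windows. Counted by window, as the shares are, 4 of 13 member windows held a match of 3 units and 8 of 13 a match of 2. Some of these windows overlap or are near copies, so their matches are not all separate. In Hspe1 the match is the block of 18 bases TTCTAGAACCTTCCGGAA, and the head-to-head gene Hspd1 holds the same bases read from the other strand, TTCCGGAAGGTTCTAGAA. The windows of Hspe1 and of 1 of the 2 Hspd1 starts overlapped by 285 bases, so this block lies in both. The windows of Hspa1a and Hspa1b, 2 copies of the major inducible HSP70 gene, were alike at 296 of 300 bases, each with the unit pair GAAGATTC at -104 from the start. Hspb1 had 2 such pairs, and Hsph1 had its match of 3 units, TTCTGGAAAGTTC, after the start and so outside the bases shown. A match describes letters only and does not show binding.

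The inducible members were abundant in library A and scarce in libraries B and C. Together they held 2422 CPM in A (95% exact Poisson interval 2410 to 2434), 62.9 CPM in B (60.7 to 65.2) and 71.7 CPM in C (69.5 to 74.0). The constitutive or mixed members held 3225, 1531 and 1425 CPM. Of the 10 members, 8 were highest in library A, where 49.3% of the 6060 genes that reach 20 CPM in any library were highest, and the mitochondrial pair Hspd1 and Hspe1 was highest in library B, as were 22.3% of genes. In library C 0 members were highest, beside 28.4% of genes. All intervals here cover counting error only. No library was tied to a day, age or treatment here, so the levels are not read as effects of these.

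Hspa1a (ENSMUSG00000091971, chr17:34969190-34972156, minus strand, GRCm38), the inducible HSP70, had 1138 CPM in library A (1130 to 1146), 23.0 CPM in B (21.7 to 24.4) and 20.1 CPM in C (18.9 to 21.3). Its copy Hspa1b (ENSMUSG00000090877, chr17:34956436-34959238, minus strand) had 435, 7.44 and 8.03 CPM, and the values in C and B lay within each other's counting intervals (7.28 to 8.82 in C and 6.69 to 8.24 in B). This was the only pair of neighbours in the order of libraries, over all members, with overlapping intervals. Hspa1a made up 72.4% of the UMIs of both copies in A (exact binomial interval 72.1 to 72.6%), 75.6% in B (73.3 to 77.7%) and 71.4% in C (69.1 to 73.7%). Within C the share was 81.7% in cluster 7 (76.6 to 86.2%) and 65.9% in cluster 3 (61.8 to 69.9%), clusters described further on. In cluster 4 of C it was 52.9% (35.1 to 70.2%), from 18 UMIs of Hspa1a and 16 of Hspa1b. In cluster 2 all 29 UMIs of the pair were Hspa1a in B, while the share was 76.9% in C (70.4 to 82.6%). The transcript ends of Hspa1a and Hspa1b share no stretch of 90 bases with each other or with another annotated gene. Reads of 90 bases from these ends can thus be told apart.

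Hspb1 (HSP25 in mouse; ENSMUSG00000004951, chr5:135887919-135889563, plus strand), a small heat shock protein that holds unfolded proteins and guards actin, had 568 CPM in library A, 1.31 CPM in B from 64 UMIs and 2.78 CPM in C from 148 UMIs. Dnajb1 (HSP40), a J-domain partner that hands proteins to HSP70, had 232, 27.3 and 35.6 CPM in A, B and C. Hsph1 (HSP110), which exchanges the nucleotide of HSP70, had 49.4, 3.88 and 5.29 CPM. Of the 5 inducible members, only Hspa1a and Dnajb1 reached 20 CPM in B and in C.

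Hsp90aa1 (ENSMUSG00000021270, chr12:110690605-110702728, minus strand), the stress-responsive form of cytosolic HSP90, had 1293 CPM in library A, 148 CPM in B and 193 CPM in C. Its constitutive partner Hsp90ab1, which is not a member, had 2055, 1745 and 2038 CPM, so Hsp90aa1 made up 38.6% of the UMIs of the pair in A, 7.84% in B and 8.65% in C. Hspa8, the constitutive HSP70 that folds new proteins and uncoats clathrin vesicles, had 1038, 538 and 524 CPM. Dnaja1, a J-domain partner of Hspa8, had 524, 74.9 and 80.5 CPM. Transcript ends of Hspa8, Dnaja1, Hsp90aa1, Hspb1, Hspd1 and Hspe1 share stretches of 90 bases with pseudogenes, so these members may lose reads to them. By transcript, 41.4 to 79.8% of the stretches in the last 500 bases were shared for Hspa8, 7.06 to 50.1% for Hspb1 and 36.0% for Hspe1. The range was 0 to 99.5% for Dnaja1, 0 to 67.4% for Hsp90aa1 and 0 to 41.6% for Hspd1. UMIs counted for those pseudogenes amounted to 0.0660 to 3.05% of the member's own for the 5 of these with such a pseudogene among the counted genes. That share does not measure the loss, since a read that matches several genes may be counted for none of them.

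The mitochondrial pair ran the other way. Hspd1 (ENSMUSG00000025980, chr1:55077835-55088243, minus strand) had 117 CPM in library A (114 to 120), 190 in B (186 to 194) and 148 in C (145 to 152). Hspe1 (ENSMUSG00000073676, chr1:55088132-55091307, plus strand) had 253 CPM in A (249 to 257), 580 in B (573 to 587) and 479 in C (473 to 485). Their order over the libraries was the same, B above C above A, with no overlap of intervals. Hspa9, the HSP70 of the mitochondrial matrix and not a member, had 73.4, 169 and 83.9 CPM.

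**Figure D1:**
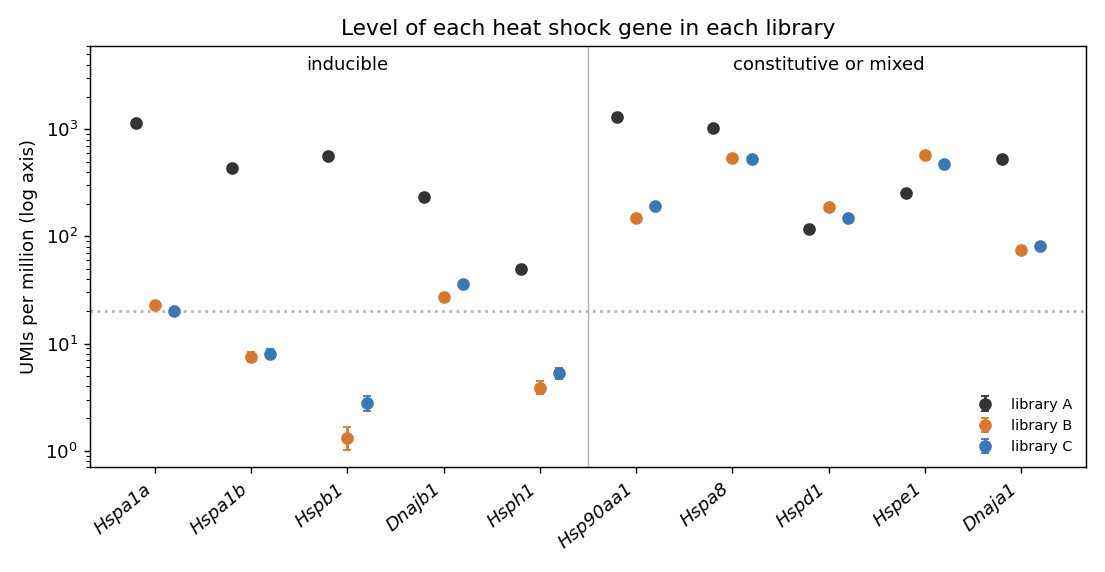
Level of each heat shock gene in libraries A, B and C, in CPM on a log axis, with 95% exact Poisson intervals that are mostly smaller than the points; the dotted line marks 20 CPM. Library A lies above B and C for 8 members, by a wide margin for Hspa1a, Hspa1b and Hspb1, and below them for Hspd1 and Hspe1.

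Several other stress genes, which are not members, were also highest in library A. Bag3, an HSF1 target that links HSP70 to autophagy, had 92.8, 14.3 and 14.2 CPM in A, B and C, and the J-domain gene Dnaja4 had 45.6, 2.65 and 2.63 CPM (both named after their values were seen). Both come from a list of 20 HSP70 and HSP110 genes and co-chaperones that summed to 1099, 1038 and 1052 CPM. Lists highest in A included HSF1 and its further targets (3657, 1637 and 1826 CPM) and endoplasmic reticulum chaperones (3213, 2740 and 2586 CPM). Lists lowest in A included the chaperonin TRiC and prefoldin (1368, 2365 and 2645 CPM), proteasome subunits (1992, 3844 and 4223 CPM) and mitochondrial chaperones and proteases (550, 991 and 784 CPM). The 22 immediate early genes, among them the AP-1 genes Fos and Jun, which respond within minutes to handling of tissue, summed to 9967, 2652 and 2462 CPM. The gene of HSF1 itself, Hsf1, stood at 9.96, 8.24 and 7.16 CPM. The small heat shock genes were not uniform, since Cryab, a lens and muscle crystallin, was lowest in A with 45.7 CPM against 85.5 CPM in B and 130 CPM in C. The nuclear RNA Malat1 held 19055, 6583 and 5247 CPM, and airway secretory markers, 4, 3 and 2 of 10 of them at 20 CPM, summed to 6090, 182 and 166 CPM. Monocyte or interstitial macrophage markers summed to 602, 23.5 and 9.56 CPM, of which Apoe made 555 CPM in A, ciliated markers to 154, 5.09 and 14.2 CPM and endothelial markers to 101, 12.8 and 20.6 CPM. The median share of mitochondrial UMIs per cell was 2.44%, 0.794% and 0.629%. The part of handling, RNA quality and other cell types in the levels of the heat shock genes was not tested.

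Most cells of library A held UMIs of Hspa1a, Hspb1 and Hspa1b. Hspa1a had a UMI in 70.7% of cells, with a median of 508 and a 90th percentile of 3347 CPM per cell, Hspb1 in 69.4%, Hspa1b in 54.8%, Dnajb1 in 49.5% and Hsph1 in 16.0%. The richest 5% of cells held 27.5% of its Hspa1a UMIs, beside 13.4% for Hspa8 and 17.2% for Hsp90aa1. With each cell thinned to 1000 UMIs, cells with an Hspa1a UMI were 46.5% of A, 2.11% of B and 1.82% of C (unthinned 70.7%, 16.3% and 6.29%). In B no cell held more than 5 Hspa1a UMIs, while in C the highest cell held 29 and in A 61. Hspa8, by contrast, had a UMI in 63.1%, 40.1% and 39.0% of thinned cells, and Hspe1 in 21.5%, 41.0% and 36.1%. Levels differed with cell depth in A for members of both kinds, where Hspa1a stood at 1406 CPM in the shallowest 20% of cells and 918 CPM in the deepest 20%, and Hspb1 at 728 and 461 CPM. Hspa8 had 1158 and 954 CPM and Hsp90aa1 1382 and 1220 CPM in the same cells, while the inducible Hsph1 had 49.3 CPM in both and Hspd1 had 118 and 116 CPM.

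Across cells of library A, Hspa1a was correlated most with Hspa1b and Hsp90aa1. Pearson's r of log-scaled UMIs over its 16367 cells was 0.54 for Hspa1a with Hspa1b (0.36 after thinning to 1000 UMIs), 0.39 for Hspa1a with Hsp90aa1 (0.24), 0.27 for Hspa1a with Hspb1 (0.18) and 0.22 for Hspa1a with Dnajb1 (0.12). The median over the 10 pairs of inducible members was 0.18 in A (0.09 after thinning), 0.01 in B and 0.03 in C, and over the 25 pairs of an inducible with another member it was 0.13 in A (0.05). In B and C most UMI counts of these genes are 0 or 1, so a low r there says little. The pair Hspd1 and Hspe1 had 0.27 in B, 0.15 in C and 0.08 in A, falling to 0.05, 0.03 and 0.03 after thinning. Hsp90aa1 with Hspd1 had 0.19 in C and 0.14 in B. These are descriptions over cells of 1 library, which share depth and composition.

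**Figure D2:**
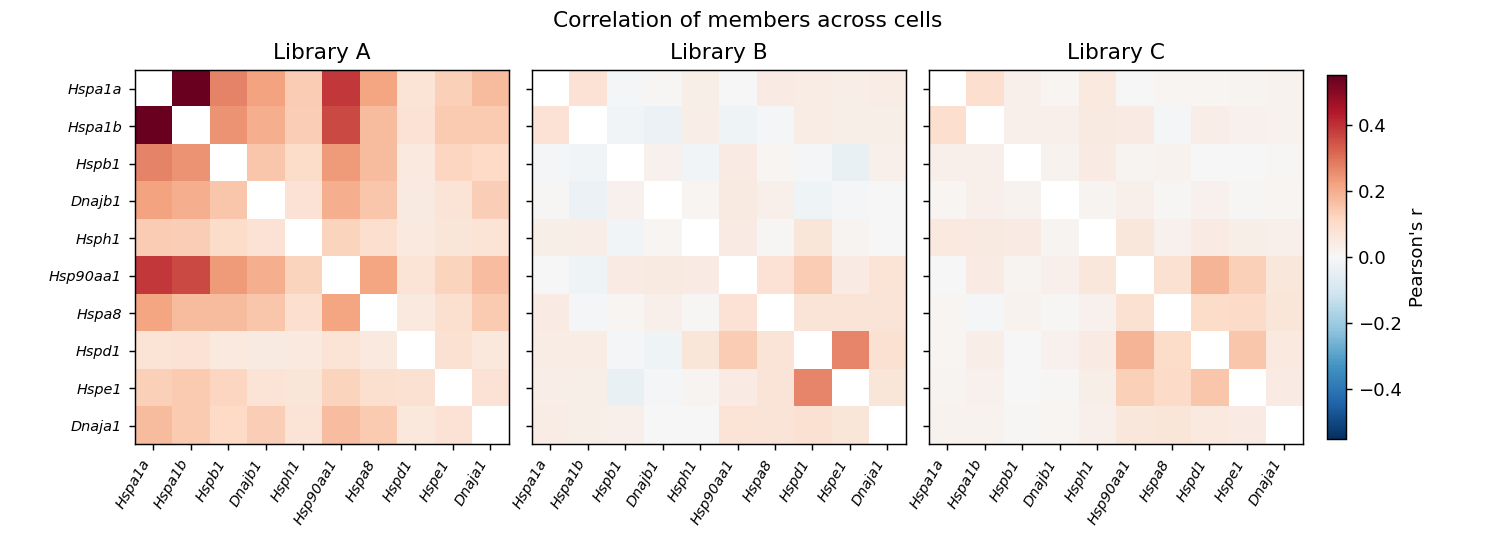
Pearson's r between each pair of heat shock genes across cells, in libraries A, B and C, from log-scaled UMIs of all kept cells, on a scale centred at 0. In A the darkest squares join Hspa1a, Hspa1b and Hsp90aa1 (0.36 to 0.54), while in B and C the highest values are those of Hspd1 with Hspe1 (0.27 and 0.15) and Hsp90aa1 with Hspd1 (0.14 and 0.19).

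By the rule for likeness, the 5 genes of 4570 whose pattern was most like the summed Hspa1a and Hspa1b UMIs in all 3 libraries were Slc34a2, a phosphate transporter of ATII cells, Il33, Hspa5, Sntb1 and C2cd4b, but with the lowest r of a library at most 0.08 the likeness is weak. In A alone, an order chosen after seeing the values, the top genes were Jun (0.29), Fos (0.29), Hsp90ab1 (0.28), Egr1 (0.27) and Ier2 (0.20), of which all but Hsp90ab1 are immediate early genes. In B and C these 5 had r of 0.09 or less.

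Dividing cells, those with any UMI of the cell cycle genes Mki67 or Top2a, were compared with all other cells of the same library. They numbered 171 in library A, 1512 in B (27.0% of its cells) and 2558 in C (17.5%). Dividing cells were deeper, with median UMIs of 10266.5 against 7741 in other cells of B, and of 5213.5 against 3141 in C. A single UMI of the pair was found in 149 of the 171 in A, 708 of the 1512 in B and 1006 of the 2558 in C. The other cells are not all outside division. Of cells with 3 or more UMIs over 8 other mitosis genes, 16 of 30 in A, 801 of 1028 in B and 1807 of 2576 in C were counted as dividing. Of the members, 7 reached 20 CPM in either class of B and of C, and a gene counts as changed with at least a 1.5-fold difference above that floor. Hsp90aa1 rose in B and C, and Hspd1 rose in C. That is 1 member of 7 in B, where 8.51% of 4911 genes rose, and 2 of 7 in C, where 18.3% of 5030 genes rose. With 7 members, these counts do not stand clear of the shares among all genes. No member fell, beside 0.977% of genes in B and 3.46% in C. Folds were above 0 for 6 of the 7 in B and 6 of the 7 in C, as for 71.2% and 68.2% of genes. At a 2-fold rule 0 members rose in B (4.26% of genes) and 1, Hsp90aa1, in C (6.82%). In A all 10 members reached 20 CPM and 0 rose or fell (7.77% and 1.99% of 5589 genes, and 2.38% rose 2-fold), and 1 of 10 folds was above 0 (60.2% of genes).

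Hsp90aa1 stood at 212 CPM in dividing cells of library B (205 to 220) and 117 CPM in other cells (113 to 121), a log2 fold of 0.85 (exact conditional interval 0.79 to 0.92). In C it stood at 319 CPM in dividing cells (310 to 329) and 151 CPM in other cells (147 to 155), a log2 fold of 1.07 (1.02 to 1.14). Among all genes tested these folds lay at percentiles 95.01 and 93.8. Hsp90ab1 stood at 1794 against 1721 CPM in B and 2236 against 1972 CPM in C, so the share of Hsp90aa1 in the pair was 10.6% in dividing cells and 6.37% in other cells of B, and 12.5% in dividing cells and 7.12% in other cells of C. In A Hsp90aa1 stood at 1279 CPM in dividing cells and 1294 CPM in other cells, a log2 fold of -0.02.

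Hspd1 stood at 219 CPM in dividing cells of C (211 to 227) and 125 CPM in other cells (121 to 128), a log2 fold of 0.80 (0.74 to 0.88), at percentile 90.0 of all genes. In B it stood at 229 CPM in dividing and 171 CPM in other cells, a log2 fold of 0.42 (0.36 to 0.48), short of 1.5-fold. Its level also moved with cell depth, with 79.5 CPM in the shallowest 20% of cells and 198 CPM in the deepest 20% of C, and 108 and 221 CPM in B. With other cells weighted to the depth of dividing cells its log2 fold in C was 0.56, and with TMM scaling (edgeR's correction for composition) 0.53, both under the 0.58 that is 1.5-fold. Its partner Hspe1 stood at 545 against 457 CPM in C and 604 against 568 CPM in B, log2 folds of 0.25 and 0.09. Hspd1 thus made up 28.6% of the UMIs of the pair in dividing cells and 21.4% in other cells of C.

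The other members that reached 20 CPM differed by less than 1.5-fold between dividing and other cells. TMM scaling shifts the median gene by -0.20 in B and -0.27 in C, and the median log2 fold of all genes tested without it was 0.14 in B and 0.19 in C. Hspa8 had log2 folds of 0.12 in B and 0.29 in C, Dnaja1 0.16 and 0.21, Dnajb1 0.24 and 0.12 and Hspe1 0.09 and 0.25. With TMM the sign turned for Hspa8 in B (-0.08), for Dnajb1 in C (-0.15), and in both B and C for Dnaja1 (-0.04 and -0.07), Hspe1 (-0.11 and -0.03) and Hsp90ab1 (-0.14 and -0.10). Dnaja1, Hspe1 and Hsp90ab1 therefore have no direction that holds over the scalings. Hspa8 in C (0.01 to 0.34) and Dnajb1 in B (0.04 to 0.56) stayed above 0 in 13 settings over whole libraries, but not inside clusters. There, Hspa8 in C had 0.05, 0.03, -0.04, -0.29 and -0.18 in clusters 2, 3, 5, 7 and 8. Dnajb1 in B had 0.03, 0.08, -0.29 and -0.38 in clusters 2, 4, 6 and 8. Hspa1a stood at 19.7 CPM in dividing and 24.6 CPM in other cells of B, a log2 fold of -0.30 (-0.51 to -0.13) at percentile 4.09, and at 18.0 and 20.8 CPM in C, a log2 fold of -0.20 (-0.42 to -1.7e-05) at percentile 14.7. Over the 13 settings its log2 fold was -1.50 to -0.22 in B and -0.47 to -0.11 in C, below 0 in each, with the lowest value in B from thinned cells. Inside clusters, however, every interval of Hspa1a included 0. Its log2 fold there was 0.05 in cluster 8 of B (-0.87 to 1.01) and below 0 in the other clusters compared, so its lower level is not firm.

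The 3 members under 20 CPM in B and C were Hspa1b (7.12 CPM in dividing and 7.59 CPM in other cells of B, 8.83 and 7.76 CPM in C), Hspb1 (0.812 and 1.56 CPM in B, 1.43 and 3.22 CPM in C) and Hsph1. Hsph1, the partner of HSP70, stood at 5.18 CPM in dividing and 3.25 CPM in other cells of B and at 8.60 and 4.19 CPM in C, from 83 and 106 UMIs in B and 114 and 168 UMIs in C. These levels are too low for the size rule and get no call.

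**Figure D3:**
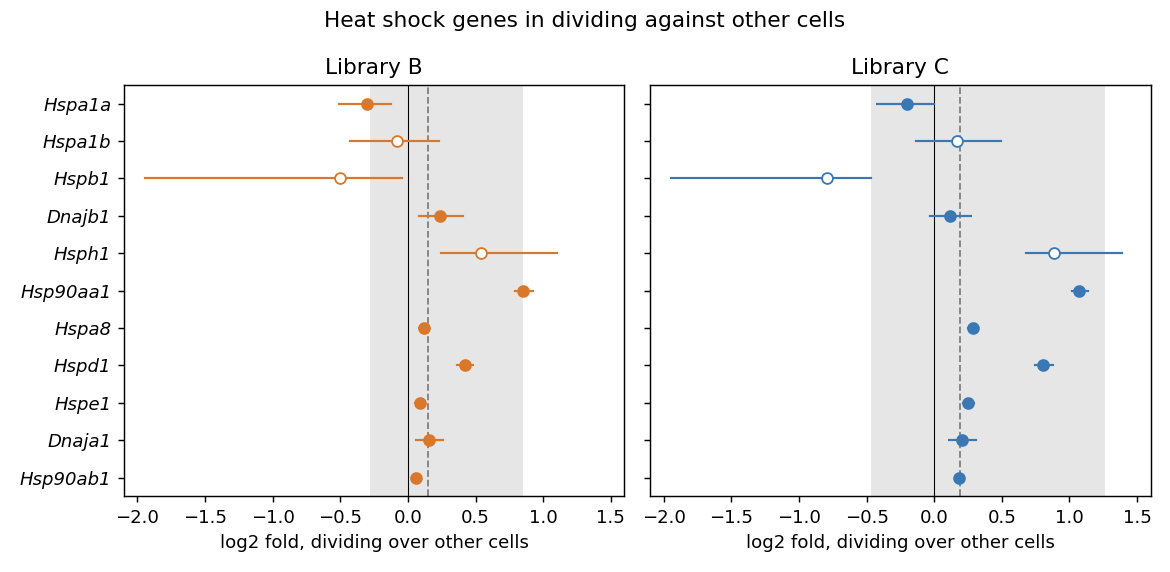
Log2 fold of each heat shock gene and Hsp90ab1 in dividing over other cells of libraries B and C, with exact conditional intervals; open points mark genes under 20 CPM in both classes, the grey band spans the central 90% of all genes tested and the dashed line their median. Hsp90aa1 sits at 0.85 in B and 1.07 in C, Hspd1 at 0.42 and 0.80, and most other members lie near the dashed line at 0.14 and 0.19.

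With more cell cycle UMIs, Hsp90aa1 and Hspd1 stood higher step by step. Cells with 0, 1, 2 to 3 and 4 or more UMIs of Mki67 and Top2a had 117, 138, 199 and 286 CPM of Hsp90aa1 in B and 151, 226, 308 and 398 CPM in C. Hspd1 had 171, 206, 228 and 251 CPM in B and 125, 191, 224 and 238 CPM in C. Intervals of neighbouring steps did not overlap for Hsp90aa1, but for Hspd1 they overlapped between the last 3 steps of B and the last 2 of C. Hsp90ab1 moved over a narrower range, 1721, 1773, 1725 and 1836 CPM in B and 1972, 2119, 2254 and 2315 CPM in C. Hspa8 also stood higher in the last step, with 523, 523, 559 and 614 CPM in B and 497, 563, 622 and 631 CPM in C. Hspe1 had 568, 611, 589 and 602 CPM in B and 457, 518, 565 and 555 CPM in C. Hspa1a had 24.6, 21.2, 21.4 and 17.8 CPM in B and 20.8, 18.4, 22.1 and 15.2 CPM in C, with intervals that overlap between neighbouring steps. Median depth went up over these steps too, over 7741, 9019, 9727 and 12245.5 UMIs in B. In A only 15 cells held 4 or more such UMIs, and they had 2152 CPM of Hsp90aa1 (1853 to 2487) and 515 CPM of Hspa1a (374 to 691), beside 1294 and 1139 CPM in the cells with none.

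**Figure D4:**
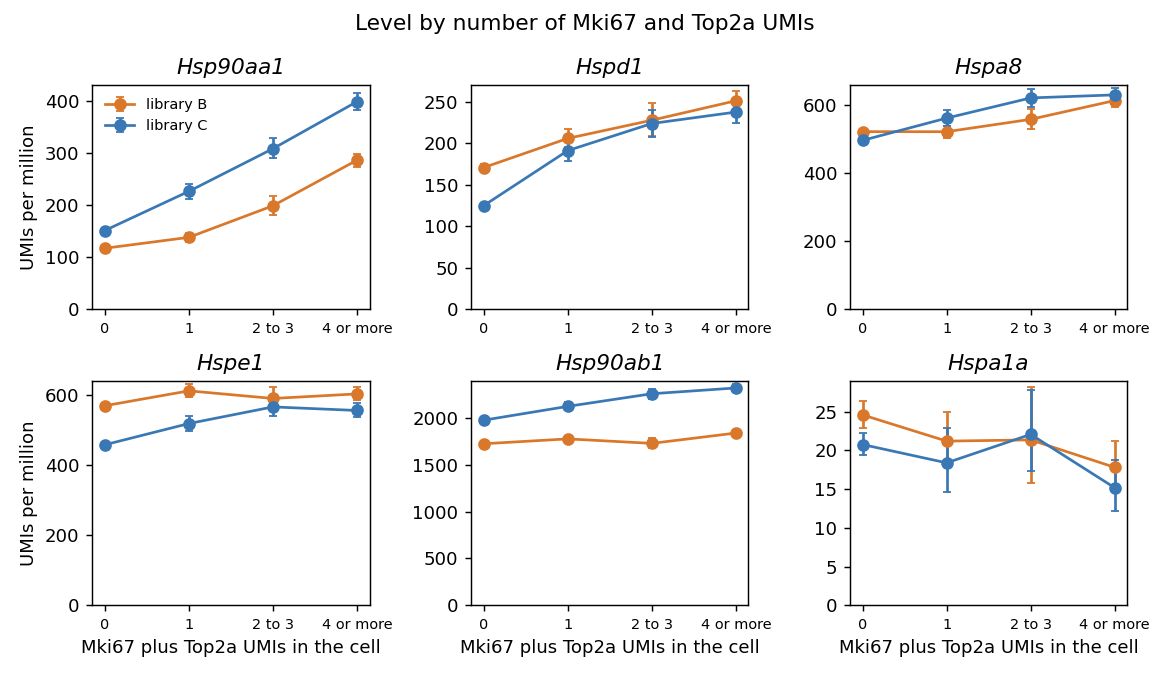
Level of 6 genes, in CPM with 95% exact Poisson intervals, in cells with 0, 1, 2 to 3 and 4 or more UMIs of Mki67 and Top2a, in libraries B and C; each vertical axis starts at 0. Hsp90aa1 climbs from 117 to 286 CPM in B and from 151 to 398 CPM in C, and Hspd1 climbs less. Hspa8, Hspe1 and Hsp90ab1 climb less still, and more in C than in B, and Hspa1a does not climb.

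Inside clusters the contrast was smaller for Hsp90aa1 than over the whole library, and for Hspd1 it varied. Cells were clustered with the members and all pathway genes left out, and dividing and other cells were compared in the 9 pairs of library and cluster with at least 50 of each (chosen after seeing the data). Log2 folds of Hsp90aa1 were above 0 in 9 of 9, over 0.20 to 0.65, of which 1 reached 1.5-fold, and the interval included 0 in cluster 8 of B and cluster 7 of C. Those of Hspd1 were above 0 in 9 of 9 as well, over 0.07 to 0.81, of which 3 reached 1.5-fold, and 3 intervals included 0. They were 0.66 in cluster 2 and 0.72 in cluster 6 of B and 0.81 in cluster 7 of C. No share of all genes is given for these contrasts inside clusters, so the counts have no background and are descriptions only. Over whole libraries, 71.2% of genes in B and 68.2% in C had folds above 0. In cluster 5 of C, with 1812 dividing and 331 other cells, Hsp90aa1 stood at 347 CPM in dividing and 221 CPM in other cells and Hspd1 at 229 and 211 CPM.

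Of the 10 clusters, those with at least 50 cells of a library were read, clusters 0 and 1 in A and clusters 2 to 8 in B and C. Clusters 0 and 1 held 43921 and 28492 of the 72446 Hspa1a UMIs of A. They held 52976 and 29192 of its 82338 Hsp90aa1 UMIs. Cells of A outside them, fewer than 50 in any cluster, are not described by cluster. Cluster 5, led by Nusap1, Pbk and histone genes, is called proliferating-like (96.8% dividing cells in B and 84.6% in C), and cluster 6, led by Gm3776, Gsta1, Ndrg1 and S100a6, transitional-like, after the state between ATII and type I cells (8.31% and 2.86% dividing). The other clusters go by number, and the rule for names was set after seeing the clusters. Hsp90aa1 was highest in cluster 5, with 275 CPM in B and 330 CPM in C. It was next in cluster 8, led by Ccnb2, Cdkn3 and Cenpa, with 216 and 232 CPM, and in cluster 6, where few cells divide, with 211 and 224 CPM. In cluster 7, led by Duoxa1 and Chia1, it was low, with 47.6 CPM in B and 74.6 CPM in C. Cluster 6 cells were not deep, with medians of 5349 UMIs in B and 2937 in C, beside 11869.5 and 5444 in cluster 5.

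Hspd1 and Hspe1 did not follow Hsp90aa1 into cluster 6. Hspd1 stood at 105 CPM there in B and 100 CPM in C, beside 243 and 227 CPM in cluster 5, 222 and 173 CPM in cluster 8 and 56.0 and 60.04 CPM in cluster 7. Hspe1 stood at 410 CPM in cluster 6 of B and of C, 589 and 553 CPM in cluster 5 and 364 and 344 CPM in cluster 7. Hspb1, near 0 in most clusters of B and C, was highest in cluster 6 of each, with 8.13 and 7.37 CPM.

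Hspa1a did not share the order of Hsp90aa1 over these clusters. It was highest in cluster 7, with 47.6 CPM in B (33.0 to 66.6) and 32.2 CPM in C (28.1 to 36.8), followed by cluster 3 (32.1 and 29.6 CPM) and cluster 4 (27.2 and 26.4 CPM). Clusters 7, 3 and 4 held 34, 47 and 757 Hspa1a UMIs in B and 219, 358 and 18 in C, so the order of clusters 7 and 3 is not firm. In cluster 2, led by Lyz2, Hspa1a was low, with 7.78 CPM in B (5.21 to 11.2) and 10.8 CPM in C (9.14 to 12.7), where Hsp90aa1 had 144 and 147 CPM. In cluster 5 Hspa1a had 17.9 and 19.2 CPM, and in cluster 6 it had 14.0 and 13.8 CPM. In library A, Hspa1a had 1061 CPM in cluster 0, led by Scin and Kcnq1ot1, and 1285 CPM in cluster 1, led by S100a6 and Scgb1a1. Hspb1 had 520 and 657 CPM in the same clusters and Hsp90aa1 1280 and 1317 CPM. These cluster values are descriptions, since a cluster is no sample.

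**Figure D5:**
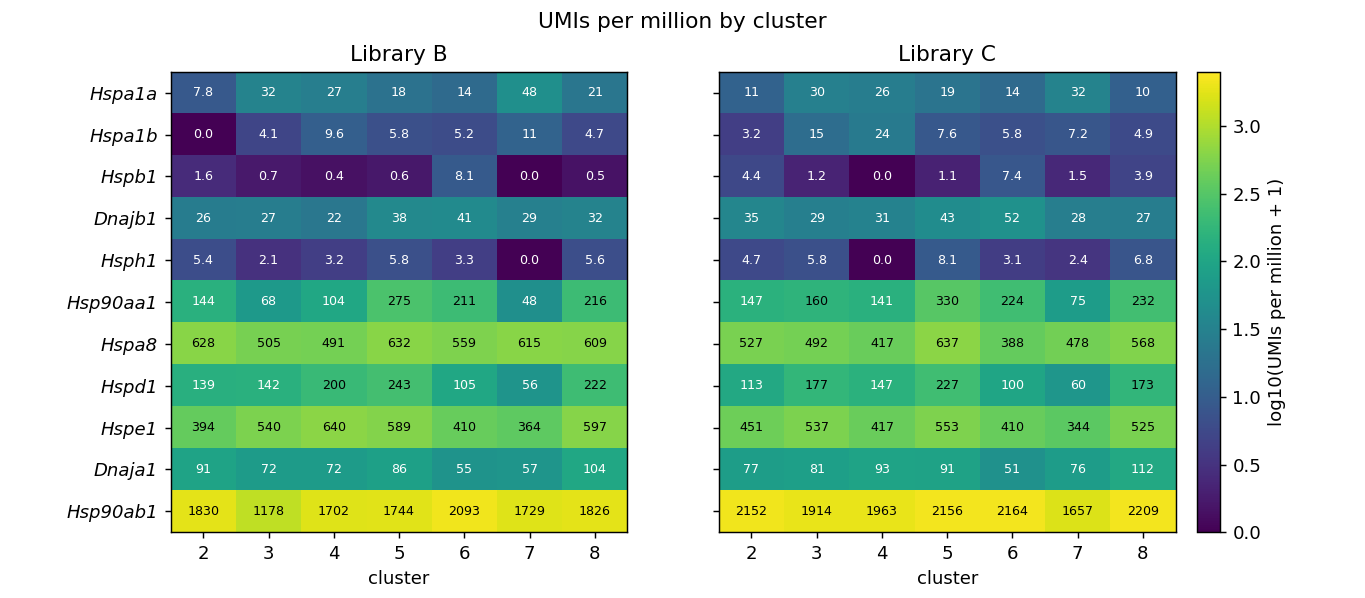
Heat map of the CPM of each heat shock gene and Hsp90ab1 in clusters 2 to 8 of libraries B and C, coloured on a log10 scale with the value written in each cell. Hsp90aa1 is highest in clusters 5, 8 and 6 and lowest in cluster 7 of both libraries, and Hspa1a is lowest in clusters 2, 6 and 8 of C and highest in cluster 7 of both.

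Other chaperone genes, from lists of the pathway, were read in the same contrast. Of Hsp90ab1 and the HSP90 co-chaperones that reached 20 CPM, 2 of 10 rose in dividing cells of B and 4 of 10 in C, beside 8.51% and 18.3% of all genes, none fell, and the median log2 fold was 0.44 and 0.51, above the 0.14 and 0.19 of all genes. Ahsa1, which speeds the ATPase of HSP90, stood at 47.5 CPM in dividing and 28.7 CPM in other cells of B and at 63.1 and 40.2 CPM in C. Stip1 (HOP), which joins HSP70 to HSP90, stood at 57.2 and 36.2 CPM in B and at 80.6 and 49.3 CPM in C. With TMM scaling 0 of 10 rose in B and 0 of 10 in C, at medians of 0.24 in each. Cdc37, which brings kinases to HSP90, had the lowest folds of the list, 0.06 and 0.05.

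Of the other HSP70 and HSP110 genes and co-chaperones 1 of 14 rose in B and 3 of 13 in C and none fell, near the 8.51% and 18.3% of all genes. Hspa14, a ribosome-bound HSP70, rose in both, to 35.7 CPM in dividing cells against 17.6 CPM in other cells of B and to 47.5 against 19.2 CPM in C, also with TMM. Hspa4l had log2 folds of 0.57 and 0.75, and Bag2 had -0.15 and -0.29. Of the small heat shock proteins 2 of 3 fell in B and the same 2 in C, beside 0.977% and 3.46% of all genes. Cryab fell to 45.6 CPM in dividing cells against 105 CPM in other cells of B, a log2 fold of -1.19, and to 64.3 against 151 CPM in C, -1.22. Hspb8, a partner of Bag3, stood at 29.9 against 47.1 CPM in B and at 26.6 against 47.8 CPM in C. Among HSF1 and its further targets, 2 of 10 rose in B and 3 of 10 in C, beside 8.51% and 18.3% of all genes. In both libraries these included Mrpl18, of the mitochondrial ribosome (log2 folds of 0.67 and 0.73), and Rbbp8, a DNA repair gene (0.79 and 1.35). Serpinh1, a collagen chaperone, had -0.13 and -0.41.

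No subunit of the proteasome, of 26 in each library, was called in either direction, with Psmd1 highest at 0.57 and 0.58. For this list and those that follow, 8.51% of all genes rose in B and 18.3% in C before TMM scaling. The shares that fell were 0.977% and 3.46%. Of the mitochondrial chaperones and proteases 0 of 15 rose in B and 1 of 13 in C, with Tomm40, a channel of the outer membrane, at 0.55 in each. Of the chaperonin TRiC and prefoldin 0 of 14 rose in B and 1 of 14 in C, the prefoldin gene Vbp1 (0.57 and 0.59). Of the chaperones of the endoplasmic reticulum 2 of 15 rose in B and 2 of 14 in C, among them Hsp90b1, the HSP90 of that compartment, at 652 CPM in dividing and 424 CPM in other cells of B and 647 and 408 CPM in C. The immediate early genes had 0 of 15 and 0 of 14 called, with Fos at 0.12 and 0.39. With TMM scaling 2 of 15 and 2 of 14 of them fell, 1 gene each of the HSF1 and TRiC lists fell in C, and the calls of Mrpl18, Vbp1 and Hsp90b1 were lost. Markers of other cell types also moved in this contrast: the 16 ATII markers summed to 161151 CPM in dividing and 173196 CPM in other cells of B and to 131561 and 152403 CPM in C. Transitional markers summed to 2289 and 3104 CPM in B and 2200 and 3081 CPM in C, type I cell (ATI) markers to 1221 and 1712 CPM in B and 1444 and 2970 CPM in C, and airway secretory markers to 148 and 199 CPM in B and 87.5 and 192 CPM in C, and their part in the results was not tested.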

How the data were processed

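Values are raw UMI counts in whole numbers, deposited by the authors as a single matrix of genes by barcodes. Single cells were read with the 10x Genomics 3′ kit with cell multiplexing, per the labels' protocols, and bcl2fastq and Cell Ranger 6.0.1 with the builds GRCm38 and mm10 are named per the submitters' processing notes. The tag libraries were not used here, and tokens were lettered in order of first appearance.

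Gene IDs were named from GENCODE for GRCm38 (52489 of 52636; the other 147 held 0.00980% of UMIs). Kept barcodes (36540 of 36584) had 1000 or more UMIs, 500 or more genes and 15% or less of UMIs from the 37 mitochondrial genes, and doublets were left in. UMIs were summed over cells and divided by all UMIs of those cells, to CPM. Log2 folds of dividing over other cells used a pseudocount of 1 CPM, which draws low genes towards 0, and their exact conditional intervals did not. No test was run, since each library is 1 sample. The size rule was 1.5-fold with 20 CPM in either class, and Mki67 and Top2a were left out of counts. All members were named, and of each pathway list the 2 highest and the lowest gene by mean log2 fold.

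Leiden clustering (resolution 0.6, 20 neighbours, 30 components, 2000 variable genes) left out the members and pathway lists. Members and lists were chosen with earlier results of these data known. On sums simulated with Poisson counting error only, 94% of intervals in library B and 95% in library C held the true fold and 0% of unchanged genes were called. The intervals assume the same error, so this checks the computation only. It cannot show how the rule holds under variation between cells or mice. TMM factors came from edgeR 4.0.16 (R 4.3.3), clusters from scikit-learn 1.9.0, leidenalg 0.10.2 and igraph 0.11.9, and the rest from scipy 1.17.1, pandas 2.3.3, numpy 2.4.6 and matplotlib 3.10.9 under Python 3.11.15. Alternatives were other definitions of dividing cells, depth matching, thinning, denominators, pseudocounts, cell filters, doublet removal, size rules and clustering resolutions.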

Additional observations from a re-analysis of the deposited data

How the results depend on the processing

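The library with the highest level was the same in 80 of 80 pairs of member and alternative (8 settings). Hsp90aa1 stayed at least 1.5-fold higher in dividing cells under the 13 settings run over whole libraries, though not within most clusters. The 2-fold rule left 0 members called in library B and 1 in C. Its log2 fold in B was 1.12 with at least 2 cell cycle UMIs, 1.14 with 8 other mitosis genes, 0.65 with TMM factors and 1.01 without the cells of cluster 6. In C it was 1.197 with at least 2 UMIs, 1.01 in thinned cells, 0.76 with depth matched, 0.80 with TMM factors and 1.15 without cluster 6, the last alternative being chosen after seeing the data. With depth matched, 1 member was called in C, and 1 with TMM factors, since Hspd1 was lost. Hspa1a in library A stood at 1740 CPM with ATII markers left out of the denominator, 975 with TMM factors, 1185 as a mean over cells and 1190 in thinned cells. In B it stood at 27.7, 25.2 and, without dividing cells, 24.6 CPM, and in C at 23.5 and 21.4 CPM, under the denominator and TMM alternatives. The highest cluster level of Hsp90aa1 was 263 CPM at resolution 0.3, 314 at 1.2 and 326 without ATII markers in B, and 312 at 0.3 and 380 without ATII markers in C. The cause of these differences was not tested. No called value changed sign. Uncalled folds did with TMM factors (Hspa8 in B, Hspa1b and Dnajb1 in C, and Dnaja1, Hspe1 and Hsp90ab1 in both), with depth matched (Hspe1 in B and Hspa1b in C), in thinned cells (Hsp90ab1 in B) and with 8 other mitosis genes (Hspa1b in C). No paired analysis was possible because the labels place no library in a group, the libraries are therefore not replicates, and the result comes from no test. No replicate could be left out.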
